A study of Mus musculus with 8 samples.

Results

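Aminoacyl-tRNA synthetases, the enzymes that join each amino acid to its own transfer RNA, were followed as 36 nuclear genes in 2 mouse B cell lymphoma lines after 2 h with JQ1. The 36 genes were taken by symbol from a list, out of 43629 genes counted. They divide into 16 mitochondrial enzymes, whose symbols end in 2, and 20 cytosolic enzymes. All 36 matched a row of the count table through their Ensembl identifiers, and all 36 passed the filter on low counts.

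The Eμ-Myc lymphoma lines #1.2 and #1.1 come from C57BL/6 mice in which an immunoglobulin heavy chain enhancer drives a Myc transgene in B lineage cells. JQ1 displaces the BET proteins, which read acetylated histones, from chromatin. Early passage cells of each line were given 250 nM JQ1 or the DMSO vehicle for 2 h, and each of the 4 groups (JQ1 and DMSO in line 1.2, JQ1 and DMSO in line 1.1) holds 2 RNA-seq libraries, 8 in all. The labels do not say whether the 2 libraries of a group came from separate cultures, so p-values measure only how far such libraries differ, which may be a technical spread, and each line is 1 cell line and not a sample of animals.

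Libraries held 10347453 to 13049877 reads counted in genes. Principal components separated JQ1 from DMSO on the first axis, with 65.4% of the variance, and line 1.2 from line 1.1 on the second, with 16.2%. Levels are given as CPM, counts relative to library size. Of 9 B cell markers all were expressed, while 0 of 6 T cell, 0 of 4 NK cell and 0 of 4 erythroid markers passed the filter on low counts. Among 6 myeloid markers 1 passed, Itgam, and among 5 stromal and endothelial markers 1, Cdh5. Both were low, at means of 1.06 and 0.749 CPM, and both were called lower under JQ1 (log2 changes of -0.70, SE 0.29, and -3.35, SE 0.50). The 9 B cell markers summed to 1353 to 1542 CPM in the JQ1 libraries and 2123 to 2315 CPM in the DMSO libraries. All 9 were called lower under JQ1, and the part of these markers in the results below was not tested. Hexim1, which holds the kinase P-TEFb inactive, was higher under JQ1 with a log2 change of 1.3 (SE 0.03), and Myc was higher by 0.62 (SE 0.04).

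Synthetases fall into a pair of unrelated structural classes, I and II, each with its own fold around the ATP site. In the cytosol several of them sit in a multi-synthetase complex held together by the scaffold proteins Aimp1, Aimp2 and Eef1e1. Mitochondria translate their own small set of respiratory chain proteins and need a separate set of synthetases, which are encoded in the nucleus and imported. A few genes, among them Gars and Kars, supply both compartments from 1 gene, and were kept with the cytosolic group. Mitochondria of mammals also lack a glutaminyl enzyme: Ears2 loads glutamate on that transfer RNA, and an amidotransferase made of Qrsl1, Gatb and Gatc turns it into glutamine. Many cytosolic synthetase genes are known targets of ATF4, the transcription factor of the integrated stress response to amino acid shortage.

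JQ1 changed synthetase transcripts in both directions, and the mitochondrial set spread wider than the cytosolic set. Averaged over both lines, mitochondrial enzymes ranged from -0.73 for Ears2 to 0.71 for Lars2 on the log2 scale. Without Lars2 the highest mitochondrial change was 0.40, for Wars2. Cytosolic enzymes ranged from -0.31 for Yars to 0.11 for Cars. Standard errors were also larger in mitochondrial genes, at 0.04 to 0.10 against 0.03 to 0.05 in cytosolic genes. Their part in the wider spread was not tested. Among the 16 mitochondrial genes 5 rose, 7 fell and 4 did not pass the test. Of the 20 cytosolic genes 3 rose, 9 fell and 8 did not pass. Calls are from edgeR's quasi-likelihood test with Benjamini-Hochberg adjustment over 12413 genes, at an adjusted p of 0.05.

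The 36 genes together gave 8 higher and 16 lower calls, where 30.7% of all genes tested were called higher and 31.3% lower. With libraries scaled by their totals in place of the trimmed mean of M-values (TMM), the split was 5 higher and 19 lower. The median log2 change was 0.002 for mitochondrial genes, -0.06 for cytosolic genes and 0.004 over all genes tested. Without regard to sign, the median log2 change was 0.20 for mitochondrial genes, 0.10 for cytosolic genes and 0.25 over all genes tested. These are bulk samples on a relative scale, so less RNA per cell and fewer cells of a type cannot be told apart.

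**Figure D1:**
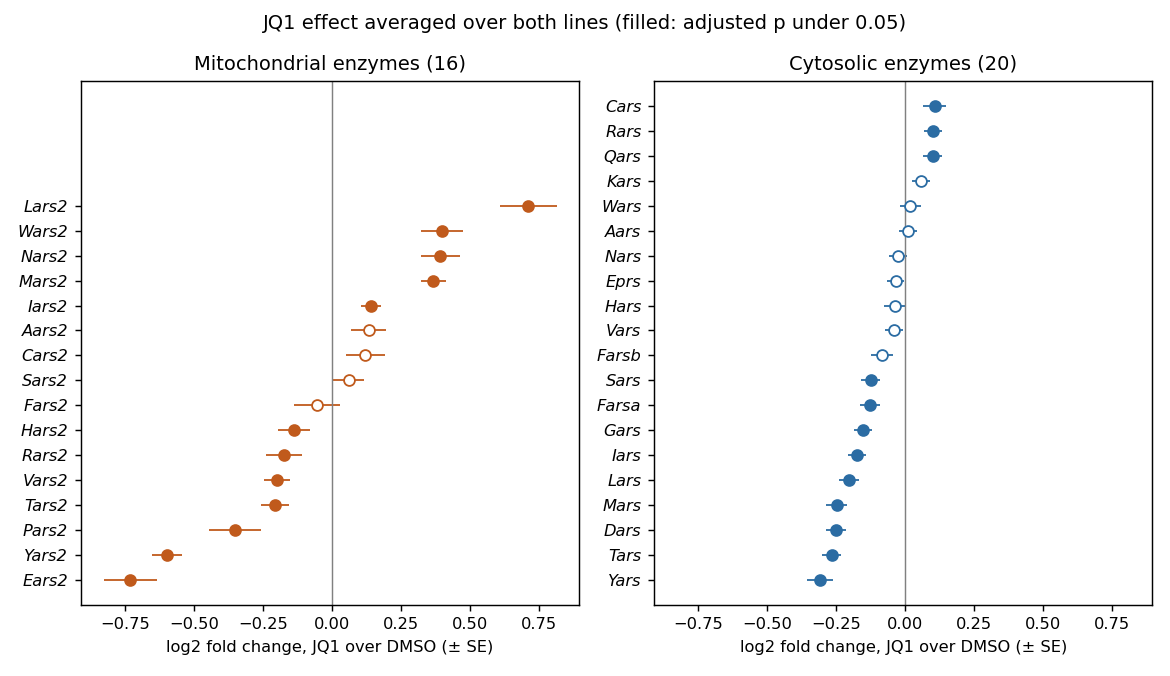
The plot gives each gene's log2 fold change of JQ1 over DMSO, averaged over both lines, with its standard error; 16 mitochondrial genes stand on the left and 20 cytosolic genes on the right, and filled points passed an adjusted p of 0.05. Mitochondrial genes run from -0.73 to 0.71 and cytosolic genes from -0.31 to 0.11.

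The largest falls among all 36 genes were mitochondrial. Ears2, the glutamyl enzyme (chromosome 7, 122037213 to 122067263, minus strand, GRCm38), had 10.0 and 8.51 CPM in the JQ1 libraries of line 1.2 and 8.26 and 7.66 CPM in those of line 1.1, against 14.3 and 15.3 CPM in the DMSO libraries of line 1.2 and 15.04 and 12.2 CPM in those of line 1.1. All 4 JQ1 libraries lay below all 4 DMSO libraries. The log2 change was -0.73 (SE 0.10, edgeR adjusted p 5.49e-07), which leaves 0.603 times the DMSO level.

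Yars2, the mitochondrial tyrosyl enzyme (chromosome 16, 16302965 to 16309640, plus strand), had 32.1 and 33.5 CPM under JQ1 in line 1.2 and 35.7 and 35.5 CPM in line 1.1, against 53.0 and 54.6 CPM under DMSO in line 1.2 and 53.1 and 46.0 CPM in line 1.1. The groups did not overlap, and the log2 change of -0.60 (SE 0.05) had the smallest adjusted p of the 36, 1.11e-09 by edgeR. Pars2, the prolyl enzyme, had 11.2 and 10.3 CPM under JQ1 in line 1.2 and 8.59 and 8.21 CPM in line 1.1, against 11.6 and 13.8 CPM under DMSO in line 1.2 and 11.4 and 11.7 CPM in line 1.1. Here too every JQ1 library was below every DMSO library, by a narrow margin in line 1.2, and the log2 change was -0.35 (SE 0.09, edgeR adjusted p 0.00221). In line 1.2 alone the fall did not pass (-0.25, SE 0.13, edgeR adjusted p 0.11).

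Tars2, the threonyl enzyme, fell by 0.21 (log2; SE 0.05, edgeR adjusted p 0.00106), with 58.5 and 53.0 CPM under JQ1 in line 1.2 and 55.8 and 51.5 CPM in line 1.1, against 64.0 and 66.5 CPM under DMSO in line 1.2 and 58.0 and 64.4 CPM in line 1.1. Its highest JQ1 library lay just above its lowest DMSO library. Vars2, the valyl enzyme, fell by 0.20 (SE 0.05, edgeR adjusted p 0.000847), with 43.5 and 44.6 CPM under JQ1 in line 1.1 set against 52.9 and 56.3 CPM under DMSO there. Its line 1.2 libraries lay closer, at 55.3 and 52.0 CPM under JQ1 and 57.1 and 57.1 CPM under DMSO, and the groups overlapped across lines. The remaining mitochondrial falls were those of Rars2, by 0.17 (SE 0.07), and Hars2, by 0.14 (SE 0.06), the arginyl and histidyl enzymes. Exons of Hars2 overlap 195 bases of the more abundant Hars on the opposite strand, so its reads are uncertain in the same way as those of other overlapping pairs if counting ignored strand.

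In the effect averaged over both lines, rises among the mitochondrial genes were led, after Lars2, by Wars2, Nars2 and Mars2. In line 1.1 alone these 3 genes rose more than Lars2, which did not pass there. Wars2, the tryptophanyl enzyme (chromosome 3, 99141068 to 99239186, plus strand), had 19.9 and 18.6 CPM under JQ1 in line 1.2 and 19.8 and 19.7 CPM in line 1.1, against 14.1 and 14.8 CPM under DMSO in line 1.2 and 16.5 and 13.6 CPM in line 1.1. Its 4 JQ1 libraries all lay above its 4 DMSO libraries, with a log2 change of 0.40 (SE 0.08, edgeR adjusted p 9.16e-05). Nars2, the asparaginyl enzyme (chromosome 7, 96951505 to 97064758, plus strand), had 22.7 and 23.6 CPM under JQ1 in line 1.2 and 25.4 and 24.6 CPM in line 1.1, against 16.6 and 19.6 CPM under DMSO in line 1.2 and 18.8 and 18.1 CPM in line 1.1. Its change was 0.39 (SE 0.07, edgeR adjusted p 2.89e-05).

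Mars2, the methionyl enzyme that supplies mitochondrial initiation (chromosome 1, 55237177 to 55248470, plus strand), had 78.4 and 76.2 CPM under JQ1 in line 1.2 and 88.2 and 91.5 CPM in line 1.1, against 58.2 and 63.3 CPM under DMSO in line 1.2 and 71.0 and 66.1 CPM in line 1.1. All JQ1 libraries were above all DMSO libraries, and the log2 change was 0.37 (SE 0.04, edgeR adjusted p 1.28e-07). Iars2, the isoleucyl enzyme, rose by 0.14 (SE 0.04, edgeR adjusted p 0.00155), with 207 and 208 CPM under JQ1 in line 1.2 and 188 and 204 CPM in line 1.1, against 184 and 191 CPM under DMSO in line 1.2 and 183 and 174 CPM in line 1.1. One JQ1 library of line 1.1 lay within the DMSO range of line 1.2, and 22.9% of the exon sequence of Iars2 overlaps Rab3gap2 on the other strand, so its reads are uncertain where counting ignored strand. Aars2 (0.13, SE 0.06), Cars2 (0.12, SE 0.07), Sars2 (0.06, SE 0.06) and Fars2 (-0.06, SE 0.08) did not pass the test.

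**Figure D2:**
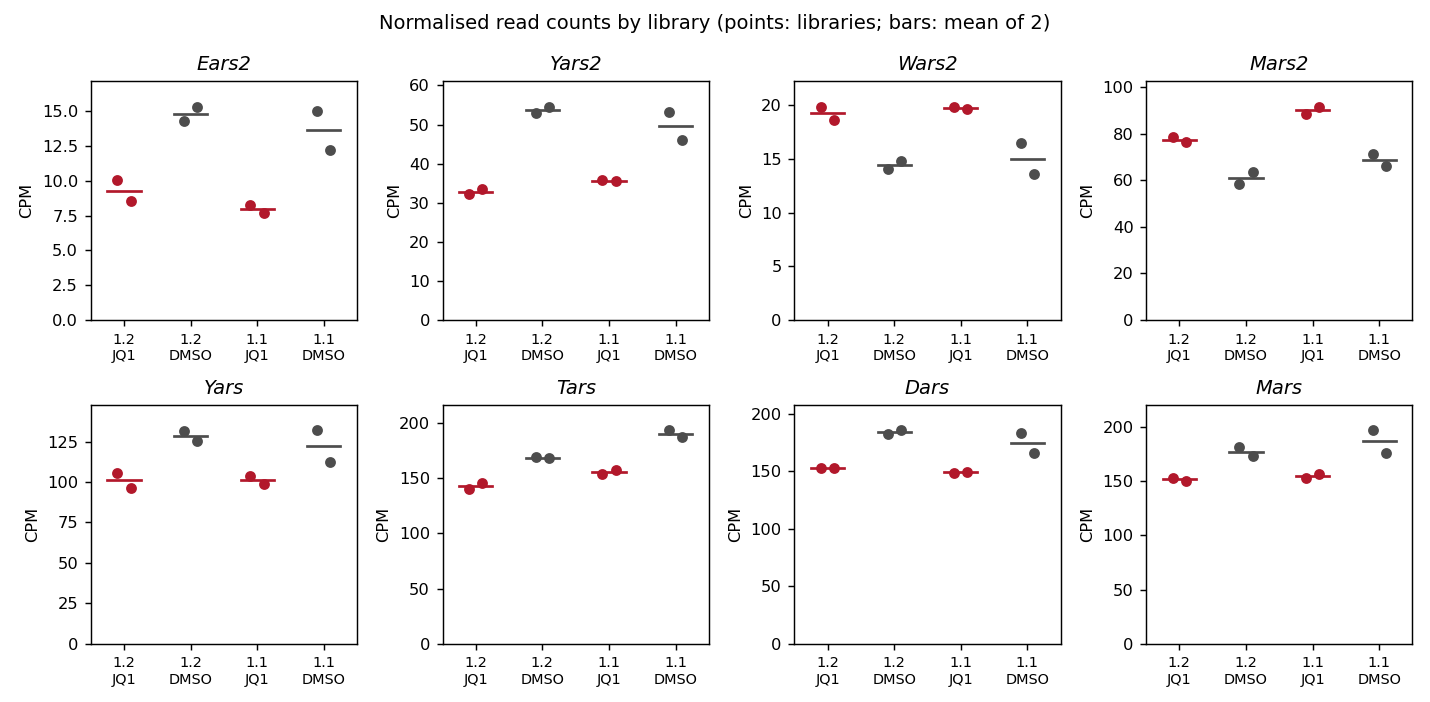
Each panel gives the CPM of 1 gene in the 8 libraries, grouped by line and treatment, with points for libraries and bars for the mean of 2; the upper row is mitochondrial and the lower row cytosolic. Ears2, Yars2 and the 4 cytosolic genes are lower in every JQ1 library than in any DMSO library, and Wars2 and Mars2 are higher.

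Lars2, the mitochondrial leucyl enzyme (chromosome 9, 123366927 to 123462666, plus strand), had both the largest rise and the least even replicates. It had 2144 and 2499 CPM in the JQ1 libraries of line 1.2 and 1761 and 1692 CPM in those of line 1.1, against 754.7 and 1432 CPM in the DMSO libraries of line 1.2 and 1429 and 1305 CPM in those of line 1.1. All 4 JQ1 libraries were above all 4 DMSO libraries, but the 2 DMSO libraries of line 1.2 differed by a ratio of 1.90, where the next largest ratio between replicates of any of the 36 genes was 1.24. The log2 change averaged over both lines was 0.71 (SE 0.10, edgeR adjusted p 1.64e-06). In line 1.1 alone it was 0.34 (SE 0.14, edgeR adjusted p 0.0535) and did not pass.

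Lars2 also stood apart in level. It took 53.7% to 79.0% of the summed CPM of the 16 mitochondrial genes, and per kb of exon it averaged 147 CPM, where the next mitochondrial gene, Iars2, averaged 21.7 CPM. Its counts ran beside those of Gm15564, a noncoding gene on chromosome 16 whose transcript shares 3 words of 50 letters with Lars2. Lars2 transcripts share 22 words of that length with 5 other genes, Gm15564 among them. Gm15564 had 54.1 and 73.9 CPM under JQ1 in line 1.2 and 45.6 and 45.8 CPM in line 1.1, against 20.8 and 37.3 CPM under DMSO in line 1.2 and 39.8 and 32.5 CPM in line 1.1. It stayed at 2.49% to 2.96% of the Lars2 count in all 8 libraries. The mitochondrial ribosomal RNA gene mt-Rnr2, which shares no word of 20 letters with Lars2, had 611 to 799 CPM under JQ1 and 543 to 632 CPM under DMSO. The other such gene, mt-Rnr1, likewise shares none and had 346 to 447 CPM under JQ1 and 331 to 391 CPM under DMSO. Gm42418, a noncoding gene on chromosome 17 that also shares no such word, had 1296 and 2644 CPM under JQ1 in line 1.2 and 474.6 and 493.2 CPM in line 1.1, against 382.9 and 340.5 CPM under DMSO in line 1.2 and 361.3 and 976.5 CPM in line 1.1. It was highest in the same 2 libraries as Lars2, and in the DMSO library where Lars2 was lowest it was close to 2 of the other DMSO libraries. All of these companion genes were named after the Lars2 values were seen. The part of these genes in the Lars2 result was not tested.

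Summed over the mitochondrial set, the rise was that of Lars2. The 16 genes summed to 2812 and 3162 CPM under JQ1 in line 1.2 and 2412 and 2351 CPM in line 1.1, against 1406 and 2108 CPM under DMSO in line 1.2 and 2083 and 1943 CPM in line 1.1, a log2 change of 0.52. Without Lars2 the other 15 summed to 651 to 668 CPM in the JQ1 libraries and 638 to 676 CPM in the DMSO libraries, a log2 change of 0.01. The 20 cytosolic genes summed to 4721 to 4941 CPM under JQ1 and 4857 to 5265 CPM under DMSO, a log2 change of -0.07. These summed values carry no test.

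**Figure D3:**
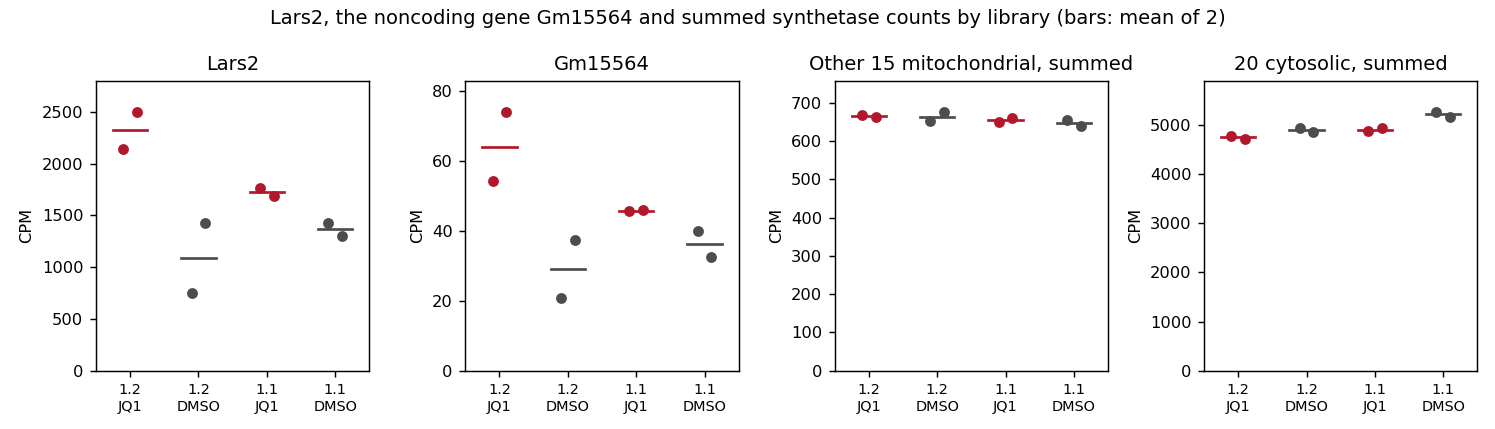
The 4 panels give, by line and treatment, the CPM of Lars2, of the noncoding gene Gm15564, of the other 15 mitochondrial synthetases summed and of the 20 cytosolic synthetases summed, with points for libraries and bars for the mean of 2. The DMSO libraries of line 1.2 lie apart for Lars2 and for Gm15564, while the 15 other mitochondrial genes sum to between 638 and 676 CPM in every library.

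Cytosolic enzymes fell more often than they rose, and each change was small. Yars, the tyrosyl enzyme (chromosome 4, 129189760 to 129219607, plus strand), had 106 and 96.2 CPM under JQ1 in line 1.2 and 104 and 99.0 CPM in line 1.1, against 132 and 125 CPM under DMSO in line 1.2 and 132 and 112 CPM in line 1.1. The groups did not overlap, and the log2 change was -0.31 (SE 0.05, edgeR adjusted p 3.52e-06), or 0.807 times the DMSO level. Tars, the threonyl enzyme (chromosome 15, 11382301 to 11399665, minus strand), had 140 and 145 CPM under JQ1 in line 1.2 and 154 and 157 CPM in line 1.1, against 169 and 168 CPM under DMSO in line 1.2 and 193 and 187 CPM in line 1.1. Every JQ1 library was below every DMSO library, with a log2 change of -0.27 (SE 0.03, edgeR adjusted p 3.3e-07).

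Dars, the aspartyl enzyme (chromosome 1, 128363707 to 128417368, minus strand), had 152 and 153 CPM under JQ1 in line 1.2 and 148 and 149 CPM in line 1.1, against 182 and 185 CPM under DMSO in line 1.2 and 183 and 166 CPM in line 1.1. Mars, the methionyl enzyme (chromosome 10, 127296221 to 127311786, minus strand), had 153 and 151 CPM under JQ1 in line 1.2 and 153 and 157 CPM in line 1.1, against 181 and 173 CPM under DMSO in line 1.2 and 197 and 177 CPM in line 1.1. In neither gene did the groups overlap, and the log2 changes were -0.25 for Dars (SE 0.04, edgeR adjusted p 2.18e-06) and -0.25 for Mars (SE 0.04, edgeR adjusted p 4.5e-06). The annotated exons of Mars overlap 68 bases of Ddit3, itself a stress response gene, on the opposite strand.

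Lars, the leucyl enzyme, had 187 and 170 CPM under JQ1 in line 1.2 and 184 and 182 CPM in line 1.1, against 200 and 211 CPM under DMSO in line 1.2 and 213 and 210 CPM in line 1.1, without overlap (log2 change -0.21, SE 0.04, edgeR adjusted p 3.07e-05). Iars, the isoleucyl enzyme (chromosome 13, 49682100 to 49734267, plus strand), had 297 and 307 CPM under JQ1 in line 1.2 and 291 and 301 CPM in line 1.1, against 320 and 327 CPM under DMSO in line 1.2 and 358 and 346 CPM in line 1.1, again without overlap (-0.17, SE 0.03, edgeR adjusted p 4.9e-05). A processed pseudogene, Gm4849, shares 7.15% of the 50-letter words of Iars transcripts. Smaller falls passed for Gars (-0.15, SE 0.03), the glycyl enzyme of both compartments, for Farsa (-0.13, SE 0.04), a subunit of the phenylalanyl enzyme, and for Sars (-0.12, SE 0.03), the seryl enzyme.

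The 3 cytosolic rises were the smallest called changes. Cars, the cysteinyl enzyme, had 83.2 and 88.0 CPM under JQ1 in line 1.2 and 84.6 and 87.7 CPM in line 1.1, against 78.2 and 77.1 CPM under DMSO in line 1.2 and 84.99 and 78.7 CPM in line 1.1, and its groups overlapped (0.11, SE 0.04, edgeR adjusted p 0.0327). Rars, the arginyl enzyme, had 233 and 244 CPM under JQ1 in line 1.2 and 248 and 253 CPM in line 1.1, against 221 and 219 CPM under DMSO in line 1.2 and 238 and 237 CPM in line 1.1, without overlap inside either line (0.10, SE 0.03, edgeR adjusted p 0.0107). Qars, the glutaminyl enzyme, had 216 and 212 CPM under JQ1 in line 1.2 and 207 and 214 CPM in line 1.1, against 205 and 191 CPM under DMSO in line 1.2 and 197 and 201 CPM in line 1.1 (0.10, SE 0.03, edgeR adjusted p 0.0156).

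None of the 3 rises passed when libraries were scaled by their totals, with adjusted p of 0.206 for Cars, 0.139 for Rars and 0.162 for Qars. Only 1 of the 3 passed without the second JQ1 library of line 1.2, without the second DMSO library of line 1.2 or without the second JQ1 library of line 1.1. The other 8 cytosolic genes, Aars, Eprs, Farsb, Hars, Kars, Nars, Vars and Wars, lay between -0.09 and 0.06 and did not pass.

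A short element, TGATGNAA, the core of the site that C/EBP and ATF4 factors bind together, was found in the promoters of 5 cytosolic genes and of 0 of the 14 mitochondrial genes for which a promoter was at hand. Promoters were RefSeq stretches from 250 bases before to 50 bases after the start (build GRCm38.p6), given for 26 of the 36 genes, 12 of them cytosolic; both strands were searched for exact letters, and no match overlapped another motif. The element was in a promoter of 4.51% of all 27025 genes that had one and of 2.61% of the 8529 of them that were tested. It is shown for 4 of these genes, those that fell under JQ1, in a window of 30 bases, with its own letters in capitals and every window turned so that the element reads forward.

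Tars: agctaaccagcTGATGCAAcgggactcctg
Yars: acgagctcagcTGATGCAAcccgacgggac
Iars: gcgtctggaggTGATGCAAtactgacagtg
Gars: cgcccggtgcaTGATGAAAtagcgcagcca

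Windows lay at chr15:11399655-11399684 for Tars (plus strand), chr4:129189895-129189924 for Yars (plus strand), chr13:49682126-49682155 for Iars (minus strand) and chr6:55037960-55037989 for Gars (minus strand). The base at the variable position was C in the windows of Tars, Yars and Iars, and A in that of Gars. The match began 15 bases before the start in Tars and 30 before it in Gars, and 3 and 7 bases past it in Yars and Iars.

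Of these 5 genes 4 fell under JQ1, Tars, Yars, Iars and Gars, and the median log2 change of the 5 was -0.17. Aars, which held the element both before and past its start, was not called (0.01, SE 0.03). The 7 cytosolic genes with a promoter but without the element had 1 rise, 3 falls and a median of -0.09. Of all 20 cytosolic genes 9 fell, and 31.3% of all genes tested were called lower and 30.7% higher. The difference between genes with and without the element was not tested. The E-box CACGTG is the site of Myc and its partner Max. It was in the promoters of 4 of 12 cytosolic genes, Aars, Farsb, Iars and Tars, and of 1 of 14 mitochondrial genes, Ears2. The share was 8.09% of all genes with a promoter and 12.4% of those tested. A match of letters is a description and not a bound site.

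Upstream stretches of 250 bases are given for Tars, whose fall was among the firmest of the cytosolic genes, and for Yars2, Mars2 and Wars2, the mitochondrial genes that moved opposite ways. Capitals mark TGATGNAA, the NRF1 core GCGCANGCG and the ETS core CCGGAAG on either strand, factors with known roles in genes for mitochondrial proteins. They lie at chr15:11399659-11399908 (minus strand), chr16:16302715-16302964, chr1:55236927-55237176 and chr3:99140840-99141089 (plus strand).

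Tars: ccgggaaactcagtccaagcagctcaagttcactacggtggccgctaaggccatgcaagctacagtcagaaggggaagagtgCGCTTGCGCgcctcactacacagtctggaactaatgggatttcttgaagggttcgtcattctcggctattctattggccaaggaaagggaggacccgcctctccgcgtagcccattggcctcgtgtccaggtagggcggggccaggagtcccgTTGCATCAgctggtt
Yars2: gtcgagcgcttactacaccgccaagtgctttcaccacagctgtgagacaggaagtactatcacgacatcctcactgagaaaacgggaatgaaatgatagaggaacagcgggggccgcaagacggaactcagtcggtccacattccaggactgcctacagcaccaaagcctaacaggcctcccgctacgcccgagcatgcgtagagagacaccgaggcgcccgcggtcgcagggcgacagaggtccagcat
Mars2: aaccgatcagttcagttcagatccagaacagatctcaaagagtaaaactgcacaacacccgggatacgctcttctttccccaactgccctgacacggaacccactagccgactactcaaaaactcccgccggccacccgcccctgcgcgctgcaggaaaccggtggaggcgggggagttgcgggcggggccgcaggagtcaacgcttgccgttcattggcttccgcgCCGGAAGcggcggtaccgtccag
Wars2: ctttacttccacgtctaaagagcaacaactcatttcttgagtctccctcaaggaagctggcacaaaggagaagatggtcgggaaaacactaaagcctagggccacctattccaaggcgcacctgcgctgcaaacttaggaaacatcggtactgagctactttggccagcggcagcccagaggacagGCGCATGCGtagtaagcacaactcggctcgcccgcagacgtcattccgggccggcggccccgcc

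The stretch of Tars held the NRF1 core and TGATGNAA, both on the strand opposite to the gene. Mars2 held the ETS core 23 bases before its start and Wars2 the NRF1 core 64 bases before it, while Yars2, which fell, held none of the 4 motifs. Past the start, and so outside these stretches, Mars2 held the NRF1 core 2 bases in, and Tars the E-box 19 bases in and a second NRF1 core 25 bases in. Over whole promoters, the other called mitochondrial genes with a promoter at hand did not divide by direction. Among those that fell, Vars2 held the NRF1 core, Rars2 the ETS core, Ears2 the E-box and Tars2 none of the 4 motifs. The Tars2 promoter (chr3:95754928-95755227) lay inside the annotated span of the gene, which ran to 95760206 on the minus strand. Hars2 and Pars2, which also fell, had no promoter at hand. Among those that rose, Iars2 held the NRF1 core, and Lars2 and Nars2 held none. The NRF1 core was in 4 of 14 mitochondrial and 3 of 12 cytosolic promoters, against 7.03% of all genes with a promoter and 16.8% of those tested. The ETS core was in 4 of 14 mitochondrial and 4 of 12 cytosolic promoters, against 9.93% and 22.8%.

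Within the cytosolic set the 8 synthetases of the multi-synthetase complex, Eprs, Iars, Lars, Mars, Qars, Rars, Kars and Dars, gave 2 rises, 4 falls and a median of -0.10, and the 12 outside it 1 rise, 5 falls and a median of -0.06. These counts, and those by class, stand beside 30.7% of all genes called higher and 31.3% lower. The scaffold genes of the complex did not move as 1 group. Aimp2 rose, with 78.3 and 77.6 CPM under JQ1 in line 1.2 and 74.9 and 75.4 CPM in line 1.1, against 54.0 and 52.9 CPM under DMSO in line 1.2 and 57.7 and 61.0 CPM in line 1.1 (log2 change 0.44, SE 0.04, edgeR adjusted p 3.3e-09). Eef1e1 fell by 0.23 (SE 0.04, edgeR adjusted p 6.32e-05), and Aimp1 changed by 0.02 (SE 0.04) and did not pass. By structural class, the 9 class I cytosolic genes had 3 rises and 4 falls, and of the 10 class II genes 5 fell and 5 did not pass. Eprs, which joins a glutamyl and a prolyl enzyme in 1 protein, holds both classes and is in neither count; it changed by -0.03 (SE 0.03) and did not pass, while its mitochondrial counterparts Ears2 and Pars2 fell.

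Matched by amino acid, the 13 pairs of single genes showed every combination of calls but a shared rise. Both members fell in 2 pairs, Yars2 with Yars and Tars2 with Tars. The calls were opposite in 4 pairs. In 3 of them, Lars2 with Lars, Mars2 with Mars and Iars2 with Iars, the mitochondrial gene rose and the cytosolic gene fell. In the fourth, Rars2 with Rars, the mitochondrial gene fell (-0.17) and the cytosolic gene rose (0.10). Only 1 member was called in 6 pairs, and neither in 1, Aars2 with Aars. Pair counts stand beside 30.7% of all genes called higher and 31.3% lower, and were not compared with pairs of unrelated genes. The difference inside a pair was not tested.

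In transcript level per length, the mitochondrial gene was the lower member of nearly every pair. The length is that of all annotated exons of a gene together, and enzyme amounts were not measured. Mean CPM per kb of annotated exon ran from 2.22 for Ears2 to 147 for Lars2 among mitochondrial genes, with a median of 7.78, and from 12.6 for Cars to 141 for Vars, the valyl enzyme, among cytosolic genes, with a median of 37.0. The mitochondrial level per kb was below the cytosolic one in 12 of 13 pairs, from 4.38% of it for Nars2 to 71.5% for Yars2. For Lars2 the figure was 405%. Lars2 counts ran beside those of Gm15564, and whether all of them came from Lars2 transcripts was not tested. Vars, with the highest cytosolic level, had 743 and 712 CPM under JQ1 in line 1.2 and 830 and 830 CPM in line 1.1, against 785 and 743 CPM under DMSO in line 1.2 and 810 and 861 CPM in line 1.1, which overlapped (-0.04, SE 0.03).

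**Figure D4:**
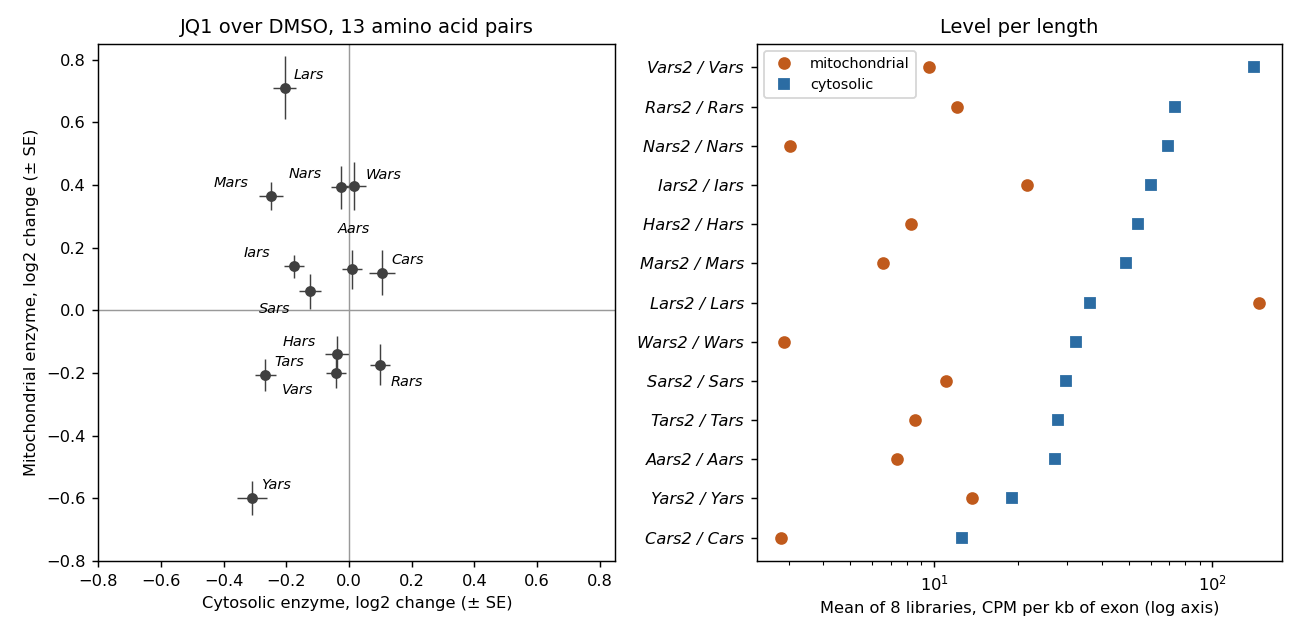
The left panel sets the log2 change of the mitochondrial gene (vertical) against that of the cytosolic gene (horizontal) for 13 amino acids, each with its standard error and labelled by the cytosolic symbol; the right panel gives the mean level of both members in CPM per kb of exon on a log axis. Yars and Tars lie where both are lower, and Lars2 is the mitochondrial gene whose counts per length exceed those of its partner. Whether all Lars2 counts came from its own transcripts was not tested.

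Ears2 and Yars2 led the falls in both lines, and Wars2, Nars2 and Mars2 were higher in both. In line 1.2, 7 members rose and 10 fell, where 24.4% of all genes were called higher and 25% lower. In line 1.1, 4 rose and 13 fell, against 24.9% and 26.1% of all genes. Among genes called in the averaged effect, Rars2, Hars2, Cars and Qars passed in neither line alone. Pars2, Vars2, Iars and Sars passed only in line 1.1, and Lars2, Rars and Farsa only in line 1.2. In line 1.2 the count of rises was 4 without the second JQ1 library or without the first DMSO library of that line, and the count of falls was 6 without the second JQ1 library. Ears2 changed by -0.67 (SE 0.13) in line 1.2 and by -0.79 (SE 0.14) in line 1.1, and Mars2 by 0.35 (SE 0.06) and 0.39 (SE 0.06). Yars2 changed by -0.71 (SE 0.08) in line 1.2 and by -0.48 (SE 0.08) in line 1.1.

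The difference between the lines in the JQ1 effect was tested as an interaction, and 0 of 36 members passed by edgeR, against 0.113% of all genes; DESeq2 and limma-voom also called 0. At an unadjusted p of 0.05, 4 of 36 members passed, Lars2, Iars, Vars2 and Yars2, against 1000 of all 12413 genes tested. Lars2 changed by 1.09 (SE 0.14) in line 1.2 and by 0.34 (SE 0.14) in line 1.1, a difference of 0.75 (SE 0.20, edgeR adjusted p 0.219). Without the second DMSO library of line 1.2 that difference was 1.29 and passed (adjusted p 2.5e-08). It also passed without the first DMSO library of line 1.1, at 0.69 (adjusted p 0.016), without the second, at 0.81 (adjusted p 0.0148), and with no filter on low counts, at 0.76 (adjusted p 3.8e-40). Over all alternatives the difference ran between 0.36 and 1.29, with adjusted p as high as 0.92.

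**Figure D5:**
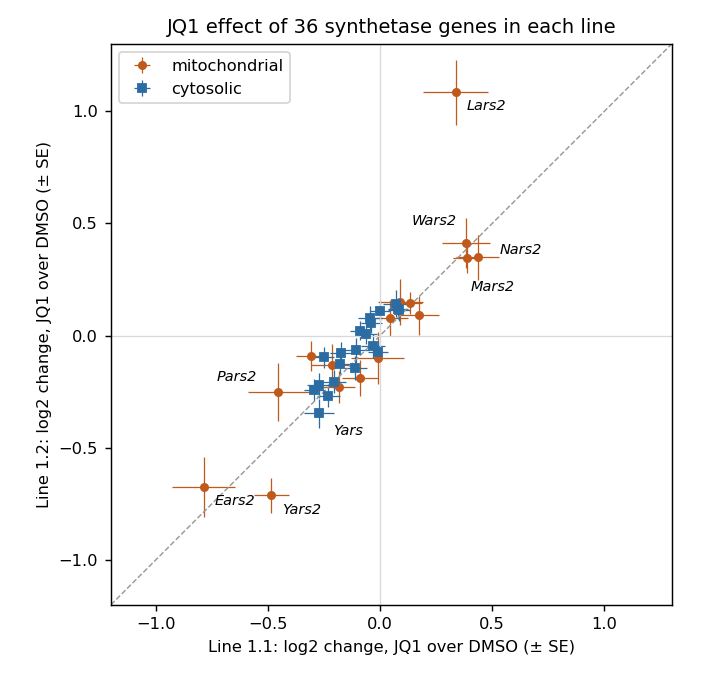
Each of the 36 genes is placed by its log2 change of JQ1 over DMSO in line 1.2 (vertical) and in line 1.1 (horizontal), with standard errors, circles for mitochondrial and squares for cytosolic genes, and a dashed line where both are equal. Lars2 lies farthest from that line, at 1.09 in line 1.2 and 0.34 in line 1.1.

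Without drug, the called differences between the lines were in cytosolic genes. In DMSO, 2 members were lower in line 1.2 than in line 1.1 by edgeR, against 3.17% of all genes. By edgeR, DESeq2 or limma-voom 0 were higher, against 3.59% of all genes by edgeR. At an unadjusted p of 0.05, 10 of 36 passed in either direction, against 2512 of all 12413 genes tested. Tars had 169 and 168 CPM in line 1.2 and 193 and 187 CPM in line 1.1 (log2 difference -0.18, SE 0.05, edgeR adjusted p 0.0259). Nars, the asparaginyl enzyme, had 288 and 285 CPM in line 1.2 and 333 and 314 CPM in line 1.1 (-0.17, SE 0.05, edgeR adjusted p 0.0216). Neither gene overlapped between the lines. Both calls were lost without the first DMSO library of line 1.2. Without the second DMSO library of line 1.1, 7 members were lower: Eprs, Gars, Iars, Mars, Nars, Tars and Mars2. Without the first, 4 were lower, Kars, Nars, Tars and Vars, and Yars was higher. Without the second DMSO library of line 1.2, Lars2 was the 1 gene called lower, and Nars was the 1 left without either JQ1 library of line 1.1.

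Partners of the mitochondrial enzymes changed in both directions, with the largest change in the release factor Mtrf1. Among 18 genes for mitochondrial translation factors and transfer RNA partners there were 2 rises and 9 falls, where 30.7% of all genes were called higher and 31.3% lower, and the median was -0.12 on the log2 scale. In the route that makes glutaminyl transfer RNA after Ears2, Qrsl1 had 28.7 and 26.3 CPM under JQ1 in line 1.2 and 23.5 and 25.4 CPM in line 1.1, against 44.4 and 43.9 CPM under DMSO in line 1.2 and 41.3 and 42.4 CPM in line 1.1. All JQ1 libraries were far below all DMSO libraries (-0.73, SE 0.06, edgeR adjusted p 5.12e-11). Gatb fell by 0.26 (SE 0.07, edgeR adjusted p 0.00159), and Gatc changed by -0.06 (SE 0.06) and did not pass. These 2 subunits were named after their values were seen.

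Mtrf1, a mitochondrial release factor, was low and fell most, with 1.58 and 1.51 CPM under JQ1 in line 1.2 and 1.24 and 1.46 CPM in line 1.1, against 7.13 and 6.21 CPM under DMSO in line 1.2 and 5.70 and 4.78 CPM in line 1.1 (-2.03, SE 0.18, edgeR adjusted p 3.86e-10). Tufm, the mitochondrial elongation factor that carries charged transfer RNA to the ribosome, fell by 0.18 (SE 0.04, edgeR adjusted p 0.000253). Trmt10c, a subunit of mitochondrial RNase P, rose by 0.43 (SE 0.04, edgeR adjusted p 9.62e-09).

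The wider ATF4 programme held both rises and falls. Of 28 listed genes of the integrated stress response and amino acid supply 25 were tested: 14 gave rises, 5 gave falls and 6 did not pass, against 30.7% of all genes called higher and 31.3% lower, and the median was 0.41 on the log2 scale. Atf4 itself rose by 0.42 (SE 0.03, edgeR adjusted p 7.33e-11) and Atf5, a related factor, by 1.3 (SE 0.10, edgeR adjusted p 5.05e-11). The neutral amino acid carriers Slc1a5 and Slc7a5 rose by 0.53 (SE 0.03) and 0.50 (SE 0.04), while the cationic amino acid carrier Slc7a1 fell by 0.48 (SE 0.03). Asns, asparagine synthetase and a classic ATF4 target, changed by -0.04 (SE 0.05) and did not pass; it was named after its values were seen.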

How the data were processed

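RNA-seq counts per gene were deposited by the authors as 1 table of raw read counts, with 2 libraries for each of 4 groups. Per the submitters' processing notes, the tools were FastQC, cutadapt 1.7, TopHat, Bowtie2, HTSeq and limma, on GRCm38/mm10; for the annotation release and strand setting, the sources used here name none. Rows of reads assigned to no gene amounted to 12.3% to 14.4% of the total of gene and summary rows, and ambiguous reads to 1.54% to 1.67%. Both stayed out of library sizes.

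Symbols, coordinates and exon lengths came from GENCODE M21. The members and related lists were chosen with earlier results of these data known. Genes that passed edgeR's filterByExpr (minimum count 10, minimum total 15) were scaled by TMM and tested two-sided with edgeR 4.0.16 (glmQLFit, glmQLFTest) as 4 group means over 8 libraries, with 4 residual degrees of freedom, in R 4.3.3. CPM are TMM-scaled counts, and SE is the absolute log2 change over the square root of F. Alternatives were DESeq2 1.42.0, limma-voom 3.58.1, other scalings, filters and thresholds, a replicate block, and each library left out. The fit was tested on simulated data.

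Replicate pairs differed by more than sampling noise in each group (chi-square per degree of freedom 1.36 to 4.09). Named genes were the 6 cytosolic and 5 mitochondrial genes with the largest called change each way, called line differences, the highest and lowest levels per length, and the 4 genes of smallest p in each related list with at least 1 CPM. Protein sequences were not analysed here. The promoter windows of 1 gene are not reported here.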

Additional observations from a re-analysis of the deposited data

How the results depend on the processing

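Alternatives were run for 24 comparisons of 21 single synthetase genes, not for genes of the related lists. Each of the 24 had 15 alternatives, which left out the threshold of 0.01 and the test against a fold change of 1.5. None of the 24 reversed its direction; 334 of the recomputed values kept their side of the threshold, 20 lost a call and 6 gained one. DESeq2 called 2 members higher in line 1.1, 3 higher in line 1.2 and 1 lower between lines in DMSO. Library totals gave 5 members higher under JQ1 with 0 cytosolic, 4 higher in line 1.2, medians of -0.106 for cytosolic and -0.041 for mitochondrial genes, and a summed cytosolic change of -0.11. At an adjusted p of 0.01, 5 rose with 0 cytosolic, 4 rose in line 1.2 and 0 differed between lines. Tested against a fold change of 1.5, 0 members passed in either direction in the averaged effect, in line 1.1 or between lines, with 0 lower and 1 higher in line 1.2. With no filter 1 member, Lars2, passed the interaction. Leaving Lars2 out, chosen after seeing the data, put the mitochondrial median at -0.055 and the summed change at 0.012.

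With each library left out in turn, cytosolic rises ran from 1 to 3, line 1.2 rises from 4 to 9 and falls from 6 to 12, interaction calls from 0 to 1, and line differences from 0 to 7 lower and 0 to 1 higher. The cytosolic median ran from -0.088 to -0.057 and the mitochondrial median from -0.038 to 0.046. Such a fit assumes that the lone library of a group varies like the others.

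Replicate numbers showed no clear pairing of the samples: deviations of same-numbered libraries, over all genes tested, correlated between -0.03 and 0.08. Such a check cannot tell an absent pairing from one hidden by sampling noise. A replicate block gave 8 higher and 16 lower in the averaged effect, 5 and 13 in line 1.1, 7 and 10 in line 1.2, 0 in the interaction and 2 lower between lines. Depth, with 2 libraries a group, limits the scarcest genes most.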

Other observations

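Of all genes tested, 30.7% were called higher and 31.3% lower under JQ1, and the counts of the short lists here are to be read against those shares. Genes that edit or recycle charged transfer RNA gave 1 rise and 3 falls among 7 tested, with a median log2 change of -0.21 under JQ1. Ptrh2, a peptidyl-tRNA hydrolase of mitochondria, had 18.1 and 16.4 CPM under JQ1 in line 1.2 and 17.7 and 18.7 CPM in line 1.1, against 32.6 and 31.5 CPM under DMSO in line 1.2 and 34.6 and 31.0 CPM in line 1.1. Its JQ1 libraries all lay far below its DMSO libraries (-0.87, SE 0.07, edgeR adjusted p 3.4e-11). Prorsd1, a prolyl-tRNA synthetase associated domain protein, fell by 0.77 (SE 0.10, edgeR adjusted p 2.01e-07), and Ptrhd1 fell by 0.48 (SE 0.09, edgeR adjusted p 9.79e-05). Dtd2, a deacylase of mischarged transfer RNA, rose by 0.49 (SE 0.10, edgeR adjusted p 0.00011).

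Cytosolic elongation factors, which deliver charged transfer RNA and move the ribosome, gave 4 rises among 6, and the other 2 did not pass. Eef2 rose by 0.25 (SE 0.03), Eef1b2 by 0.21 (SE 0.03), Eef1d by 0.20 (SE 0.03) and Eef1a1 by 0.18 (SE 0.03). In the selenocysteine route, where serine on its transfer RNA is converted to selenocysteine, 3 of 5 rose: Eefsec by 0.36 (SE 0.05), Sepsecs by 0.26 (SE 0.06) and Sephs2 by 0.17 (SE 0.04). Transfer RNA export and biogenesis gave 4 rises and 6 falls among 14. There the exportin Xpot fell by 0.28 (SE 0.04) and the methyltransferase Nsun2 by 0.25 (SE 0.03), while the splicing endonuclease subunit Tsen54 rose by 0.44 (SE 0.05) and the Pol III factor Brf1 by 0.31 (SE 0.05). Kinases and sensors of the integrated stress response gave 4 rises and 2 falls among 9, with Ppp1r15a, which restarts translation, higher by 0.74 (SE 0.08) and Impact, an inhibitor of the amino acid sensor Gcn2, by 0.46 (SE 0.10). The unfolded protein sensor Eif2ak3 rose by 0.20 (SE 0.04), and the RNA sensor Eif2ak2 fell by 0.32 (SE 0.06).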
